A study of Bubalus bubalis with 6 samples.

Results

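The genes described here are those whose array name places them in the ubiquitin and proteasome system: proteasome subunits and assembly factors (PSMA to PSMG), conjugating enzymes and related ligases (UBE2 to UBE4), cullins, F-box proteins (FBXL, FBXO, FBXW), KLHL adaptors, TRIM and RNF ligases, and deubiquitinases (USP, OTUD, UCHL). They were chosen by gene symbol alone, with no measured value used. The rule found 193 genes with 437 probes, of 7932 gene names on 19762 named probes and of 177440 probes in all. One of them, USP6NL, carries a USP symbol but is known as a GTPase-activating protein for Rab proteins and not as a deubiquitinase. The array measured sperm DNA of 6 water buffalo (Bubalus bubalis) bulls, 3 high-fertile (HF2, HF3 and HF5, as the labels name them) and 3 subfertile (SF1, SF4 and SF5), with 1 array for each. Per the labels, DNA came from cryopreserved semen, and sonicated DNA bound by an antibody against 5-methylcytosine (the immunoprecipitated or IP DNA, Cy5) was hybridised with the same bull's unselected input DNA (Cy3). No age, breed or measure of fertility was used here, and the array's design text gives Bos taurus as its organism. All arrays ran the dyes the same way.

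Ubiquitin is a small protein that a cascade of activating (E1), conjugating (E2) and ligating (E3) enzymes attaches to other proteins. E3 ligases choose the target, deubiquitinases remove the tag again, and the proteasome, a barrel of proteases capped by an ATPase-driven regulatory particle, degrades many tagged proteins. In the male germ line the system is known for removing histones and surplus cytoplasm while sperm form, and for a role of sperm-borne proteasomes at fertilization. Mature sperm hardly transcribe their genes, so the values below describe the DNA that sperm carry and not the activity of these genes.

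A value is log2 of IP over input signal, set to 0 at the median of all non-control probes of that array, and is called the level. A higher level means more antibody-bound DNA relative to that median; it is not a share of methylated cytosines. Between 42.6% (SF4) and 83.3% (HF5) of the member probes had input signal well above background, and between 20.6% (HF2) and 59.95% (SF1) had IP signal well above it. Member probes were tested where the input was well above background on all 6 arrays without a non-uniformity flag. This left 158 probes of 101 genes, 36.2% of the member probes against 38.7% of all named probes and 62.4% of all probes. For 92 of the 193 genes no probe was tested. The tested member probes held 2.40 CpGs on average and the untested ones 1.04, so the values describe the CpG-richer probes of the family. A gene region is the mean of at least 3 tested probes of 1 gene name, which 14 member genes reached. By the scanner headers, HF2, HF3 and SF4 were scanned in a first session and HF5, SF1 and SF5 on later dates, called the later session here. Across the 158 member probes, arrays of the same session correlated at 0.52 to 0.82 and arrays of different sessions at -0.10 to 0.19; the probes share their arrays and are not independent. Sessions hold bulls of both groups. Group comparisons were therefore also run with the session as a block, and those values are given for the probe counts, the families and some members. Genes with known parent-of-origin marks were measured as a check on the label: 3 genes with a maternal mark lay between -0.74 (SGCE) and 0.28 (IGF2R) and 2 with a paternal mark between -0.15 (RASGRF1) and 0.08 (RTL1), so these gene regions did not part the marks. Nothing in the labels shows repeat samples of 1 bull. With 1 array per bull, p-values measure the spread between these arrays, in which bull and array cannot be told apart. In the group-only and level fits that spread also holds the difference between scan sessions. The level tests treated the 6 arrays as independent, although arrays of the same session were alike.

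The comparison of fertility groups, the question of the study, found no difference past the threshold at any member. Sequences of probes that this comparison turns on are shown first, each with its position as the files give it, on a genome build not given in the sources used here. Capitals mark every CpG of the probe, the site that the antibody can bind when methylated. Whether each marked CpG is present in these buffalo bulls was not checked. The antibody bound sonicated fragments and not the probe's bases alone. The first 3 were higher and the next 4 lower in all high-fertile bulls than in all subfertile bulls, and both TRIM2 probes are shown because they went opposite ways.
USP15 probe, chr5:112629463-112629522: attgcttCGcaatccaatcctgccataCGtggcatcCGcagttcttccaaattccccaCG
TRIM36 probe, chr10:3486361-3486420: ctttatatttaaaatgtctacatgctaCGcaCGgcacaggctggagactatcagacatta
TRIM2 probe, chr17:4669781-4669840: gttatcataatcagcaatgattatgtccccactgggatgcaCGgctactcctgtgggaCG
TRIM2 probe, chr17:4683702-4683761: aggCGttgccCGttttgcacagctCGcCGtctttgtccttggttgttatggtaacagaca
FBXL14 probe, chr5:115024193-115024252: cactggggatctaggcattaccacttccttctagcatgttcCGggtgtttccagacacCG
KLHL22 probe, chr17:75868732-75868791: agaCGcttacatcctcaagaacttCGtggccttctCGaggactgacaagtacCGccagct
TRIM45 probe, chr3:28453424-28453483: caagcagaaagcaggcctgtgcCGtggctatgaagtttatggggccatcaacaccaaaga
The files do not say whether a probe lies in a promoter, exon or intron.

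Of the 158 member probes, 0 were called between the groups by limma (0% of all 110686 tested probes were called), and 6 had an unadjusted p below 0.05, or 4 higher and 2 lower in high-fertile bulls (1.84% of all tested probes reached that p). The groups did not overlap at 12 member probes, 7 higher and 5 lower in high-fertile bulls, where 5.78% of all tested probes (2.58% higher, 3.2% lower) and 4.95% of the named ones did not overlap. The median difference, high-fertile minus subfertile, was -0.10 over member probes and -0.09 over all tested probes. With the session as a block it was -0.05, against -0.00141 over all tested probes, and 0 member probes were called, with 9 at an unadjusted p below 0.05 (3.48% of all tested probes). One of the 9 was the RNF141 probe (difference -1.07, SE 0.29, unadjusted p = 0.00617 by limma), where the groups overlapped. IP DNA there was well above background in 0 of 3 high-fertile and 2 of 3 subfertile bulls.

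USP15, a deubiquitinase, had the smallest p among the member probes in the fit with the group only. At the probe shown its level was 1.71, 0.58 and 0.07 in HF2, HF3 and HF5 and -0.08, -0.61 and -0.68 in SF1, SF4 and SF5. HF2 stood highest, and HF5 lay only just above the highest subfertile bull. The difference was 1.24 (SE 0.43, unadjusted p = 0.0161, adjusted p = 1 by limma), 1.10 (SE 0.42) with the session as a block, and 1.75 in the first and 0.46 in the later session alone. IP DNA was well above background in 2 of 3 bulls of each group, but in only 1 of 3 of the first session. TRIM36, a RING ligase known from the sperm acrosome, measured 0.06, 0.78 and 0.34 in HF2, HF3 and HF5 and -0.51, -0.57 and -0.11 in SF1, SF4 and SF5. Its difference was 0.78 (SE 0.32, unadjusted p = 0.0342, limma), with 0.98 in the first and 0.65 in the later session. IP DNA at this probe was well above background in 2 of 3 high-fertile and 1 of 3 subfertile bulls.

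TRIM2, a ligase of neurons known to act on neurofilament light chain, held non-overlapping probes in both directions. At the probe starting at 4669781 HF2, HF3 and HF5 had levels of 0.07, 1.23 and -0.35 and SF1, SF4 and SF5 of -0.58, -0.72 and -0.77. HF3 alone stood far above the rest, and the difference was 1.005 (SE 0.41, unadjusted p = 0.0341), and without that bull 0.55. About 14 kb further on, at start 4683702, the order turned: the levels were -1.82, -1.53 and -1.23 in HF2, HF3 and HF5 and -0.63, -0.51 and -1.04 in SF1, SF4 and SF5. The difference there was -0.80 (SE 0.31, unadjusted p = 0.0290, limma), with IP DNA well above background in 1 of 3 high-fertile and 3 of 3 subfertile bulls, so its size rests on dim spots. The neighbouring probe, which overlaps it by 40 bases, did not repeat the order: its levels were -1.39, -1.23 and -1.07 against -0.76, -1.18 and -1.50, a difference of -0.09 (SE 0.31).

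Among the substrate adaptors, FBXL14 and KLHL22 were lower in all high-fertile bulls, without passing the threshold. FBXL14, an F-box protein that recruits targets to a cullin ligase, measured -1.72, -1.33 and -1.59 in HF2, HF3 and HF5 and -0.48, -1.04 and -0.97 in SF1, SF4 and SF5. All 6 bulls lay below the array median, and the difference was -0.72 (SE 0.31, unadjusted p = 0.0423), or -0.48 and -0.86 within the first and the later session. KLHL22, an adaptor of the CUL3 ligase, measured -0.44, -0.28 and -0.12 in HF2, HF3 and HF5 and 0.34, 0.38 and 0.26 in SF1, SF4 and SF5. The high-fertile bulls were all below and the subfertile bulls all above the array median, by little: the difference was -0.61 (SE 0.28, unadjusted p = 0.0591, limma), and -0.74 and -0.42 within sessions. The fourth lower probe, in TRIM45, rested on 1 bull: its levels were 0.16, -1.29 and 0.32 against 0.49, 0.55 and 0.73, and the difference of -0.86 (SE 0.43) became -0.35 without HF3.

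FBXL22, another F-box gene, is covered by overlapping probes. The 5 probes below start 20 bases apart on the array, and each shares 40 bases with the next.
FBXL22 probe, chr10:46744822-46744881: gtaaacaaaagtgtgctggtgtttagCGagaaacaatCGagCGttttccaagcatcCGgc
FBXL22 probe, chr10:46744842-46744901: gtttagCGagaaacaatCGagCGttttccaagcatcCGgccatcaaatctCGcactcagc
FBXL22 probe, chr10:46744862-46744921: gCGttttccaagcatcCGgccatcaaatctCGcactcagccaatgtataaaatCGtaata
FBXL22 probe, chr10:46744882-46744941: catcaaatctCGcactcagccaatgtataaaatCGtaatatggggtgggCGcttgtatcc
FBXL22 probe, chr10:46744902-46744961: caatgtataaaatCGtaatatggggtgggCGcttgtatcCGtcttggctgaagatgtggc
Mean levels over the 6 bulls were -0.12, -0.11 and -0.16 at the first 3 probes, then 0.70 at the probe starting at 46744882 and 0.50 at that starting at 46744902. The last 2 were called above the array median (adjusted p = 0.0218 and 0.0284, limma), while the first 3, with 4, 5 and 4 CpGs, were not. The fertility groups parted without overlap at the same 2 probes. At the first of them the levels were 1.53, 0.79 and 0.70 in HF2, HF3 and HF5 and 0.30, 0.47 and 0.40 in SF1, SF4 and SF5, a difference of 0.62 (SE 0.33, unadjusted p = 0.0868). At the second they were 0.62, 0.73 and 0.61 against 0.40, 0.42 and 0.20, a difference of 0.31 (SE 0.28). Since these probes share 40 bases and the same fragments, they do not count as separate observations, and differences in level between them cannot be told apart from each probe's own response.

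Over gene regions, limma called 0 of 14 between the groups (0% of 737 regions), and 2 had groups that did not overlap, against 2.99% of all regions. PSMC4, an ATPase of the proteasome's regulatory particle, was lower in high-fertile bulls, at -0.35, -1.15 and -0.57 in HF2, HF3 and HF5 against -0.33, -0.13 and -0.30 in SF1, SF4 and SF5. HF3 was far below the others and HF2 lay just below SF1. At the PSMC4 probe starting at 49126139 HF3 stood at -3.38, against -0.55, -0.44 and -0.22 at the other probes of the region. No first-session bull had IP DNA well above background at that probe. Over the region it was well above background at 5 of 12 first-session spots and 12 of 12 later ones, so the size of the PSMC4 difference rests on dim spots. The difference was -0.44 (SE 0.25, 95% interval -1.01 to 0.13, unadjusted p = 0.116), unchanged at -0.44 with the session as a block and -0.21 without HF3. Over its 27 tested probes within 500 bp the difference was -0.14. The FBXL22 region, with all 6 of its tested probes, was higher in high-fertile bulls, at 0.12, 0.27 and 0.07 against -0.02, -0.07 and -0.03, a difference of 0.19 (SE 0.20, 95% interval -0.25 to 0.64, unadjusted p = 0.347). It was -0.015 with normexp background correction. Across the other 12 regions the differences ran from -0.51 (TRIM45) to 0.45 (USP15), and all 14 intervals reached both sides of 0.

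**Figure D1:**
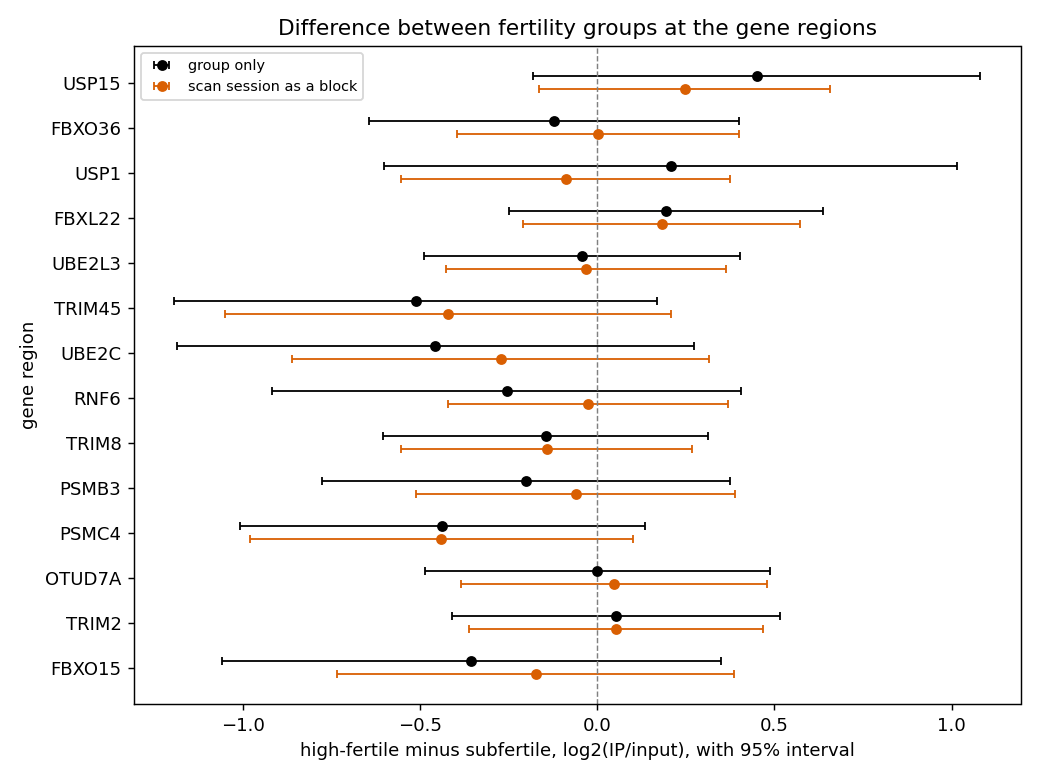
High-fertile minus subfertile difference in log2(IP/input) with its 95% interval (x axis) for each of the 14 member gene regions (y axis), from limma with the group only and with the scan session as a block. Every interval spans 0; PSMC4 lies at -0.44 and USP15 at 0.45 with the group only.

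By family, the proteasome probes had the lowest median difference. Of 22 tested probes of 13 proteasome genes, 18 had a difference below 0, with a median of -0.37, where 61.4% of all tested probes lay below 0. The same probes had a median session difference of 0.47 (later minus first), and 2 of the 3 high-fertile but 1 of the 3 subfertile bulls are of the first session. With the session as a block 17 of 22 lay below 0 and the median was -0.24. It was -0.45 within the first session and -0.01 within the later one. No single proteasome probe was called. Differences of the 25 deubiquitinase probes (16 genes) were balanced, 13 above and 12 below 0 with a median of 0.00166. Among ligases, F-box probes split 12 to 13, TRIM probes 11 above to 15 below and RNF probes 10 above to 15 below, with medians of -0.00323, -0.09 and -0.08. With the session as a block the F-box split was 16 above to 9 below, TRIM 10 to 16 and RNF 11 to 14, with medians of 0.11, -0.03 and -0.09. The conjugating enzymes had 7 of 23 above 0 (median -0.12), the KLHL adaptors 2 of 9, and the cullins 1 of 3. With the session as a block the probes above 0 in these 3 families were 6, 4 and 0, and deubiquitinases had 12 above and 13 below.

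More members were called for their level than between the groups, at shares near those of all tested features. Probes were kept for their input signal, and 65.4% of all tested probes lay below the array median, so a level below 0 is not particular to the members. Of the 14 gene regions, 4 lay below the array median and 0 above it by limma (24.4% of all 737 regions were called, 23.3% below and 1.09% above). These were FBXO15 and TRIM2 at -0.83, OTUD7A at -0.69 and PSMC4 at -0.47. Of the 158 probes, 36 were called, 29 below and 7 above, beside 21.2% of all tested probes (17.6% below, 3.53% above). The median level of member probes equalled that of all tested probes, -0.16. With the dim-input probes kept in, the balance of calls turned: 52 of 437 member probes were called above and 19 below (6.4% and 6.51% of all probes, 11% and 3.73% of the named ones). When arrays were centred on tested probes instead, 17 probes were called below and 10 above (9.74% and 9.21% of all tested probes), and PSMC4 was no longer called (-0.31, adjusted p = 0.155). With the dim-input probes kept in, none of the 4 regions was called: FBXO15 lay at -0.35, TRIM2 at -0.17, OTUD7A at -0.44 and PSMC4 at 0.00096 (adjusted p = 0.194, 0.493, 0.124 and 0.997). With 1 bull left out, 14 probes were called without SF5 and 21 without SF1.

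FBXO15, an F-box gene known as a marker of embryonic stem cells, had levels of -1.44, -1.27 and -0.29 in HF2, HF3 and HF5 and -0.49, -0.66 and -0.79 in SF1, SF4 and SF5. All 6 were below 0, with HF2 and HF3 the lowest and HF5 the highest (mean -0.83, SE 0.16, adjusted p = 0.00770). The TRIM2 average over its 4 probes was far more even between bulls, at -0.85, -0.72 and -0.83 in HF2, HF3 and HF5 and -0.67, -0.88 and -1.004 in SF1, SF4 and SF5 (SE 0.09, adjusted p = 0.00235 by limma). Its single probes were not, with means over the 6 bulls from -0.19 (start 4669781) to -1.19 (start 4683722) and the opposite group orders given above. IP DNA at TRIM2 was well above background at 6 of 12 first-session spots and 12 of 12 later ones, so its level rests partly on dim spots. OTUD7A, a deubiquitinase of the OTU family, measured -0.69, -0.65 and -0.75 against -0.44, -0.93 and -0.71 (SE 0.10, adjusted p = 0.00254). In these 2 regions groups and sessions interleaved. The PSMC4 level had an adjusted p of 0.0314 by limma, and the call was lost without HF2, HF5, SF1 or SF5 (each left out alone, adjusted p = 0.056 to 0.072). Only 5 of its 12 first-session spots had IP DNA well above background.

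**Figure D2:**
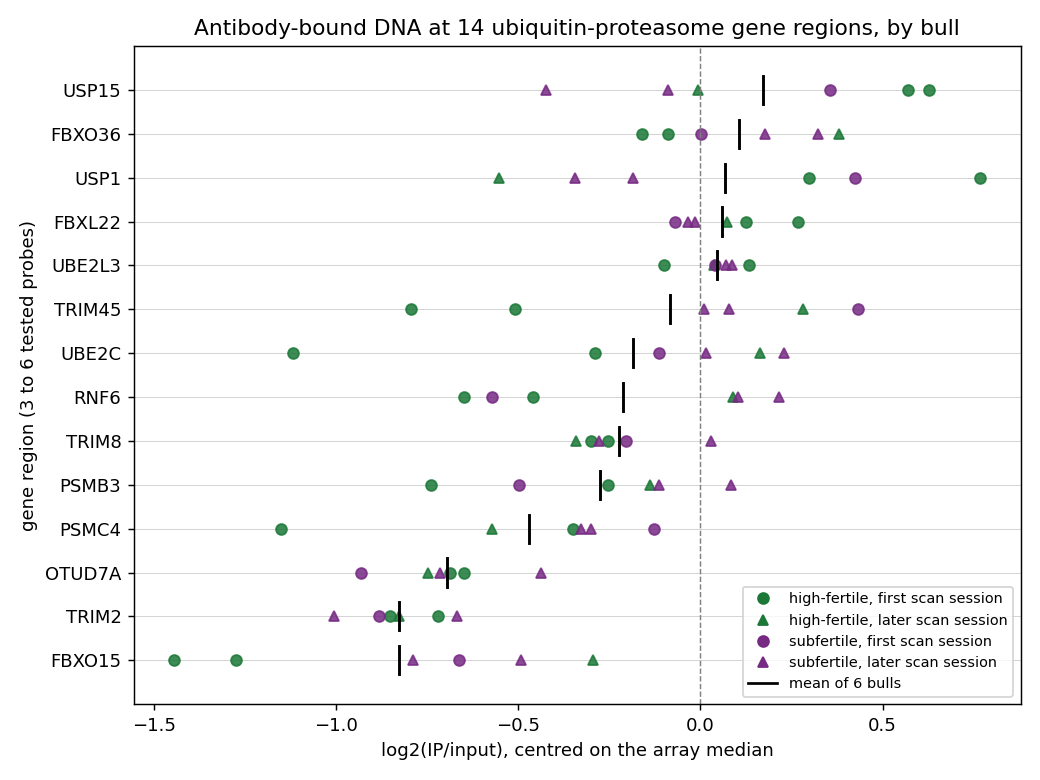
Level, log2(IP/input) centred on the array median (x axis), of the 14 member gene regions (y axis, ordered by mean), with 1 point per bull coloured by fertility group and shaped by scan session, and a bar at the mean of 6 bulls. FBXO15, TRIM2, OTUD7A and PSMC4 lie below 0 in all bulls, while RNF6, USP1 and USP15 part by session.

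The sequences of the probes at the ends of the range are shown for their CpGs: the 3 lowest hold 2, 5 and 4, and RNF103, among the highest, holds 0.
UBE2E2 probe, chr27:45945644-45945703: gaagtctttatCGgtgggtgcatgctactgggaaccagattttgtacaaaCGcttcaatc
RNF182 probe, chr23:43608376-43608435: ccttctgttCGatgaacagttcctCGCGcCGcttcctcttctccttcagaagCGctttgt
PSMC3 probe, chr15:77607046-77607105: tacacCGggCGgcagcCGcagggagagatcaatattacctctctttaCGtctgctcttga
UBE2D3 probe, chr6:23627503-23627562: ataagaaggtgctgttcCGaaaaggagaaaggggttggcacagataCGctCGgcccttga
RNF103 probe, chr11:50035276-50035335: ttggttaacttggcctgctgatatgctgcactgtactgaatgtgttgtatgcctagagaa
UBE2E2, a conjugating enzyme, had the lowest mean level of any member probe, -1.49 (SE 0.23, adjusted p = 0.00438), with -2.29, -1.43 and -1.92 in HF2, HF3 and HF5 and -1.02, -0.39 and -1.91 in SF1, SF4 and SF5. All bulls were below 0, but IP DNA was well above background in only 1 high-fertile and 2 subfertile bulls, so the lowest values are dim. RNF182, a RING ligase, and PSMC3, a proteasome ATPase, both averaged -1.26 and ran from -2.10 to -0.41 and from -2.00 to -0.51 (adjusted p = 0.00722 and 0.00382). At the high end, UBE2D3, a conjugating enzyme that works with many RING ligases, averaged 0.86 (SE 0.22, adjusted p = 0.0204) and ranged from -0.07 in HF2 to 1.57 in HF5. TRIM33, a ligase that also acts as a transcriptional corepressor, averaged 1.09 and RNF103, a ligase of the endoplasmic reticulum, 0.88, and neither was called (adjusted p = 0.137 and 0.0968); in both, each first-session bull was higher than each later one. The other probes called above the median were in TRIM68, TRIM25, RNF43 and KLHL14, besides both in FBXL22.

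Of the proteasome probes, 18 of 22 had levels below 0, with a median of -0.44, the lowest of the 8 families, and 5 were called below and 0 above, a share near the 17.6% of all tested probes called below. The called ones were in PSMC1 (-0.51), PSMC3, PSMC4 (-0.64), PSMC5 (-0.65) and PSMG3 (-0.81), that is 4 ATPases of the regulatory particle and 1 assembly factor. The called PSMC4 probe holds 0 CpGs, and the PSMC4 probes with 3 CpGs lay at 0.01 and -0.22 and were not called. The PSMG3 probe holds 1 CpG, with IP DNA well above background in 1 of 3 high-fertile and 3 of 3 subfertile bulls. Of the other families, RNF (median -0.23), KLHL (-0.22), F-box and TRIM (both -0.15), deubiquitinases and UBE enzymes (both -0.09) lay nearer to the array median. TRIM probes had 7 calls below and 2 above of 26 (17.6% of all tested probes were called below and 3.53% above), and those below were 3 in TRIM2, 2 in TRIM8 and 1 each in TRIM59 and TRIM62.

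Because few probes carry a gene name, each gene was also measured over all tested probes within 500 bp of a named one, a choice made after the data were seen. This gave 55 member genes with 3 to 49 probes (median 14), 41 of them not among the 14 above. Between the groups 0 of 55 were called (0% of 2635 such regions), and only FBXL14 had groups that did not overlap, at -1.40, -1.05 and -0.94 in HF2, HF3 and HF5 and -0.36, -0.85 and -0.79 in SF1, SF4 and SF5 (difference -0.46, unadjusted p = 0.0818, limma; 1.75% of all such regions did not overlap). The level was called below the median for 16 genes and above it for 1, beside 32.2% of all such regions, 29.6% below and 2.58% above. Proteasome genes made up 6 of the 16, out of 12 measured: PSMC3 (-0.97, SE 0.16), PSMC5 (-0.70, SE 0.14), PSMC4 (-0.56, SE 0.10), PSMG1 (-0.52), PSMB4 (-0.51) and PSMB3 (-0.29). PSMC1, the fourth ATPase measured, was at -0.25 and not called (adjusted p = 0.0819). The others below were the adaptors FBXL14 (-0.90), FBXL15 (-0.63), FBXO15 (-0.54) and KLHL12 (-0.33), the ligases TRIM2 (-0.88), RNF182 (-0.57), RNF111 (-0.45) and TRIM59 (-0.35), and the deubiquitinases OTUD7A (-0.79) and USP16 (-0.52). UBE3B, a HECT ligase, was the 1 gene above, at 0.47 (SE 0.12, adjusted p = 0.0139), with all bulls between 0.13 and 0.92.

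**Figure D3:**
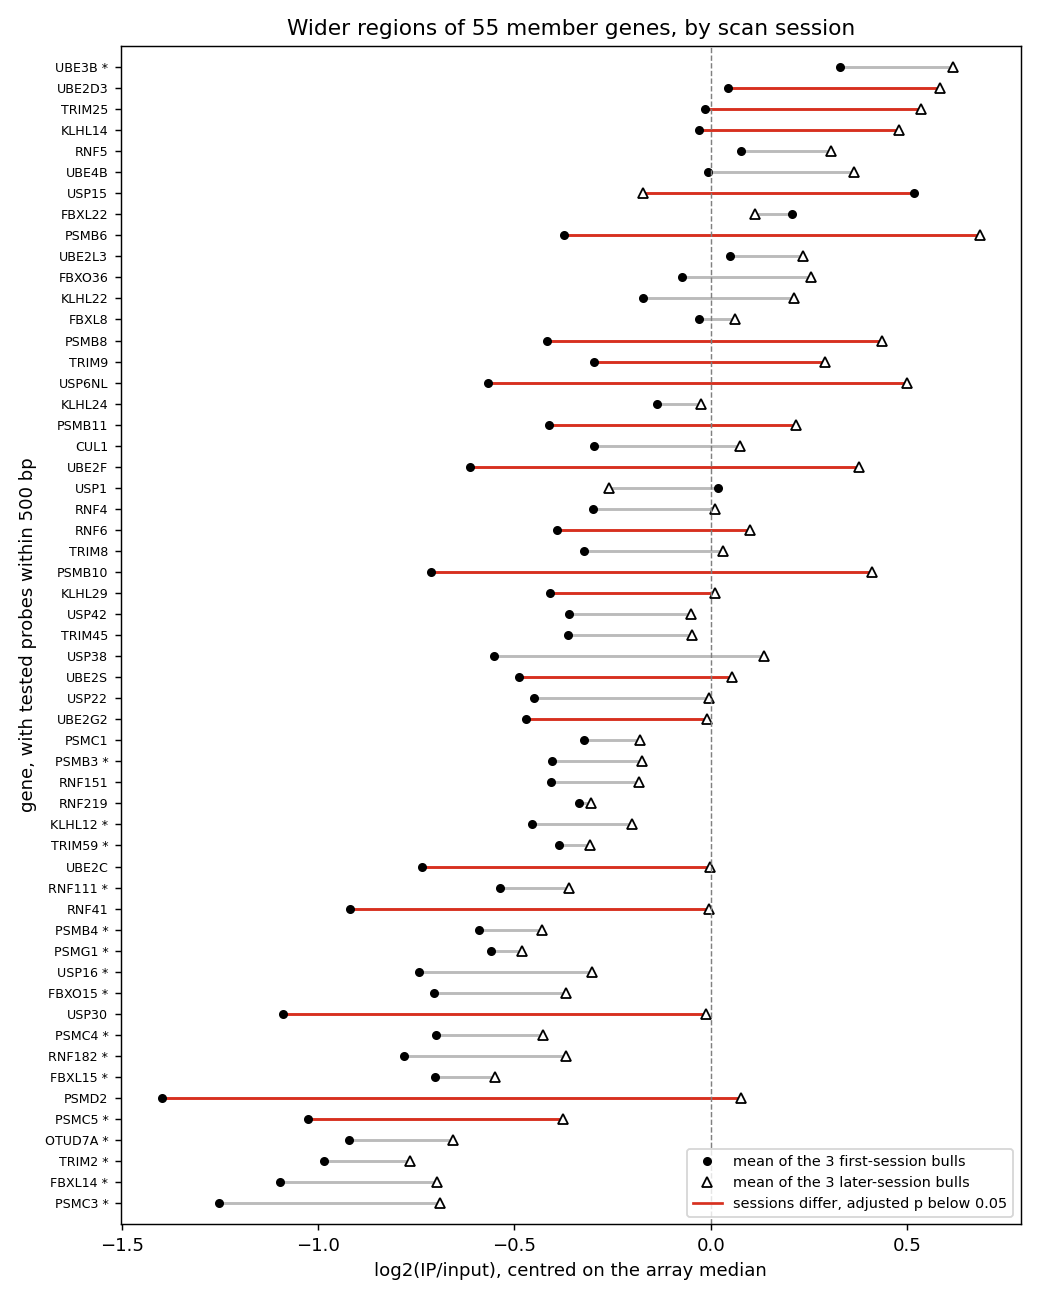
Mean level, log2(IP/input) centred on the array median (x axis), of 55 member genes over tested probes within 500 bp of a named probe (y axis, ordered by the mean of 6 bulls), for the 3 first-session bulls (filled circles) and the 3 later-session bulls (open triangles). Asterisks mark genes whose level was called, from PSMC3 at -0.97 to UBE3B at 0.47, and red lines mark the 20 genes called between sessions.

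More member probes differed between scan sessions than between fertility groups. In the fit with both session and group, limma called 22 of 158 probes between sessions, 9 higher and 13 lower on the later dates (8.08% of all tested probes were called, 6.5% higher and 1.58% lower, and 14.6% of the named ones), and 3 of 14 regions (20.8% of all regions). With arrays centred on tested probes 17 probes were called, 2 higher and 15 lower (1.01% and 1.64% of all tested probes, 1.23% and 8.45% of the named ones). The median session difference was 0.09 over the tested member probes, 0.09 over the named tested probes and 0.27 over all tested probes. With the dim-input probes kept in it was -0.80 over all 437 member probes, -0.75 over named probes and -0.02 over all probes. In that setting 31 of 58 member regions were called lower and 0 higher (54.8% and 2.51% of all such regions). With 1 bull left out, 0 member probes were called without HF5, SF1, SF4 or SF5, 20 without HF3 and 39 without HF2. No session effect differed between groups at a member by the interaction term (0 called, 10 at an unadjusted p below 0.05, which 4.85% of all tested probes reached).

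The direction differed with the number of CpGs in the probe. The called probes with the smallest p each way are shown with their sequences, the first 4 higher and the last 4 lower on the later dates, chosen after their values were seen.
RNF44 probe, chr7:37308991-37309050: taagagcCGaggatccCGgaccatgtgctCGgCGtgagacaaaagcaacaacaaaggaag
UBE2F probe, chr3:125040432-125040491: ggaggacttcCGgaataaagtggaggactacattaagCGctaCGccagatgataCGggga
RNF41 probe, chr5:61668159-61668218: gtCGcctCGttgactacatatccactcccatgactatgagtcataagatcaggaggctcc
PSMD2 probe, chr1:84763646-84763705: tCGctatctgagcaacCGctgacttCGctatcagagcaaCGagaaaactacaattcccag
TRIM33 probe, chr3:31349948-31350007: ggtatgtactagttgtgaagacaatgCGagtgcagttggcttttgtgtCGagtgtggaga
PSME4 probe, chr11:37976823-37976882: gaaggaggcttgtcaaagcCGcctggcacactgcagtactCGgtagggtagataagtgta
USP2 probe, chr15:28502072-28502131: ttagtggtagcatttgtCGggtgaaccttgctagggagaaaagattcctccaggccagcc
USP8 probe, chr10:61205164-61205223: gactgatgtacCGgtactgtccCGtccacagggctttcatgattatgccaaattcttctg
Among probes with 0 or 1 CpG, 34 of 49 were lower on the later dates, with a median change of -0.61, 10 called lower and 0 called higher. Among probes with at least 3 CpGs, 57 of 73 were higher, with a median of 0.36, 6 called higher and 0 called lower, while the 36 probes with 2 CpGs had a median of 0.07 and 3 calls each way. Within an array, the correlation of level with CpG count across the member probes was -0.20, -0.31 and -0.28 in HF2, HF3 and SF4, and 0.31, 0.27 and 0.19 in HF5, SF1 and SF5. These are descriptions over 158 probes of the same arrays. Over all tested probes the correlation was negative in every array, -0.17 to -0.03, and over named probes it changed sign between sessions as in the members. The session change rose with CpG count outside the members too. Its median went from -0.72 at 0 CpGs to 0.40 at 5 or more over named tested probes. Over all tested probes it went from -0.07 to 0.34. Over all CpG counts, 6.07% of named tested probes were called higher and 8.49% lower. RUNX3, the only leukocyte marker region measured, was also higher on the later dates (0.70, adjusted p = 0.0263 by limma), and its part in the result was not tested. The imprinted gene PEG10 was called higher too (0.59, adjusted p = 0.0413 by limma), where 20.8% of all regions were called between sessions. IGF2R (0.41) and DSP (0.40) were higher without passing the threshold. Of the marker regions, SGCE alone was lower (-0.11).

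**Figure D4:**
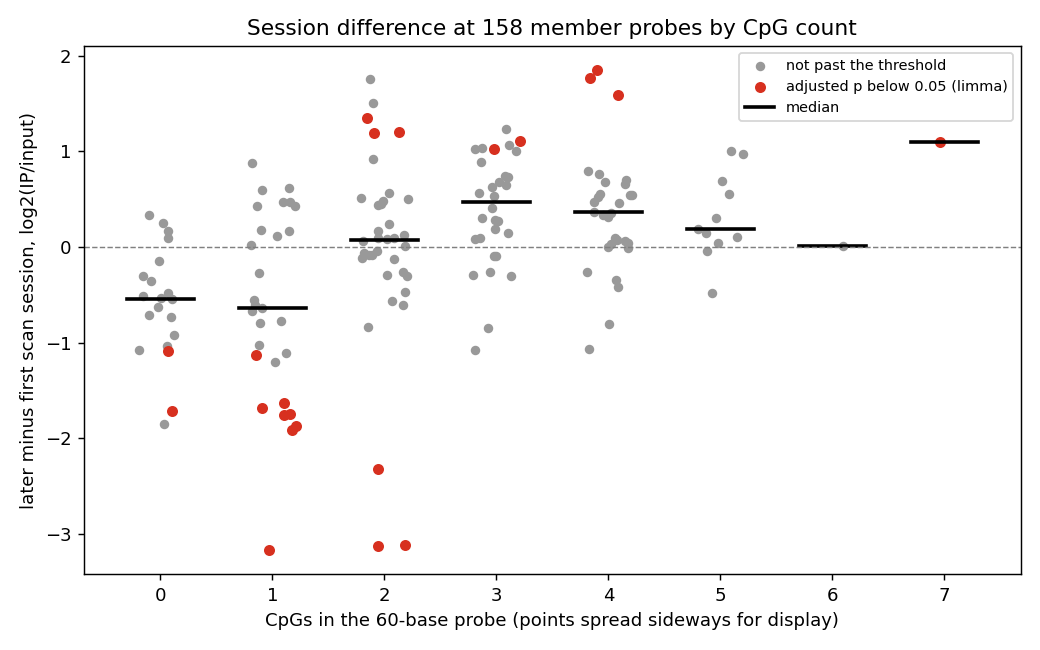
Later minus first session difference in log2(IP/input) (y axis) of the 158 tested member probes against the number of CpGs in the probe (x axis, points spread sideways), with bars at the median of each count and the 22 called probes in red. All called probes with 0 or 1 CpG lie below 0 and all with 3 or more lie above.

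RNF44, a RING ligase, was -0.85, -0.78 and -0.91 in the first-session bulls (HF2, HF3 and SF4) and 0.95, 0.80 and 0.92 in the later ones (HF5, SF1 and SF5). The bulls formed 2 tight clusters that crossed the fertility groups, and the difference was 1.77 (SE 0.23, adjusted p = 0.0273). UBE2F, the conjugating enzyme of the ubiquitin-like NEDD8, went from -0.88, -1.36 and -0.50 to 1.25, 0.82 and 0.83, a difference of 1.85 (SE 0.31). RNF41 rose by 1.35 (SE 0.26) and PSMD2, a scaffold subunit of the regulatory particle, by 1.58 (SE 0.32). In the first session IP DNA was well above background in 1 of 3 bulls at the RNF41 probe and 2 of 3 at the PSMD2 probe, and in the later one in all 3 at both, so the sizes of these changes rest partly on dim spots.

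TRIM33 had the opposite pattern, 2.49, 3.02 and 2.39 in the first-session bulls and -0.82, -0.35 and -0.18 in the later ones, a difference of -3.11 (SE 0.30, adjusted p = 0.0273). PSME4, the activator found on proteasomes of the testis and known to serve histone removal in spermatids, was at 1.17, 2.37 and 2.82 and then at -0.63, -0.89 and -1.17 (difference -3.13, SE 0.43). IP DNA was well above background in all 6 bulls at both probes. UBE2J1, a conjugating enzyme of the endoplasmic reticulum, fell by 3.17 (SE 0.51), with IP DNA well above background in 2 of 3 bulls of each session. The deubiquitinases USP2 and USP8 fell by 1.63 (SE 0.23) and 2.32 (SE 0.35), with IP DNA well above background in 2 of 3 later-session bulls at each. PSME4 was the only proteasome probe called lower, while PSMB6, PSMB8 and PSMB10, catalytic subunits of the standard and immune proteasome, and PSMD2 were called higher. Deubiquitinase names had 5 probes called lower, in USP1, USP2, USP8, USP14 and USP28, and 2 higher, both overlapping probes of USP6NL.

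**Figure D5:**
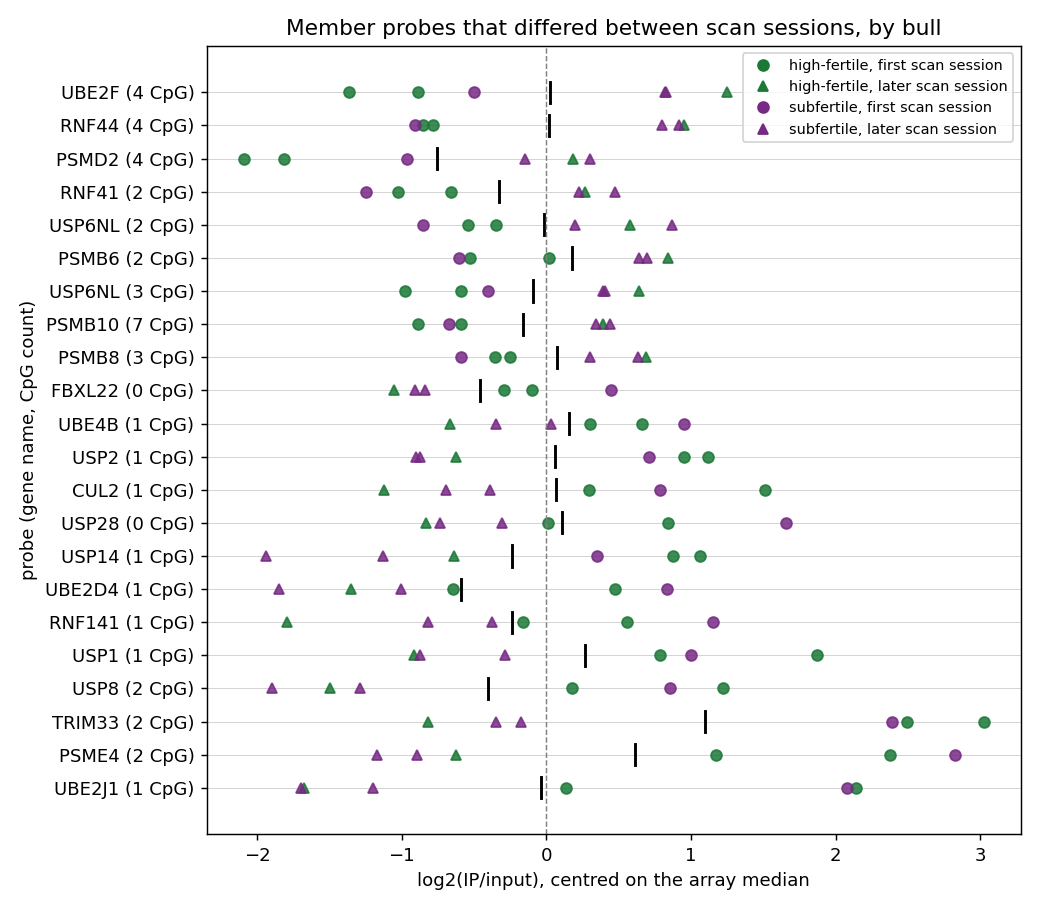
Level, log2(IP/input) centred on the array median (x axis), of the 22 member probes called between sessions (y axis, gene name and CpG count), with 1 point per bull coloured by fertility group and shaped by scan session, and a bar at the mean. At every probe the 3 first-session bulls lie on 1 side of the 3 later-session bulls, and green and purple points mix within each session.

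Of the gene regions, RNF6, a RING ligase, was higher on the later dates, at -0.65, -0.46 and -0.57 in HF2, HF3 and SF4 and 0.09, 0.22 and 0.10 in HF5, SF1 and SF5 (difference 0.69, SE 0.18, adjusted p = 0.0287). USP1, which removes ubiquitin from DNA repair proteins, went the other way, from 0.30, 0.77 and 0.42 to -0.55, -0.34 and -0.18 (-0.89, SE 0.21, adjusted p = 0.0236 by limma), as did USP15, from 0.63, 0.57 and 0.36 to -0.01, -0.09 and -0.42 (-0.61, SE 0.18, adjusted p = 0.0424). At USP15, IP DNA was well above background at 6 of 12 first-session spots and 12 of 12 later ones. Without HF5, SF1 or SF4 none of the 3 regions was called, without SF5 only USP1 was, and RNF6 was not called with arrays centred on tested probes (0.45, adjusted p = 0.105). FBXO15 (0.54) and FBXO36 (0.38) were also higher but not past the threshold, and FBXL22 (-0.04) and PSMC4 (-0.0043) were near 0. For UBE2C, the conjugating enzyme of the anaphase-promoting complex, IP DNA was well above background at 0 of 12 first-session spots and 12 of 12 later ones, so its first-session values of -1.12, -0.29 and -0.11 are bounds and no size of change is drawn from them.

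Over the wider regions, 19 of 55 genes were called higher on the later dates and 1, USP15, lower (38.7% of all such regions were called, 34.7% higher and 3.98% lower). The USP15 region gained no probe, so its 4 probes and values are those given above. All 12 proteasome genes were above 0 in this difference, as were 51 of the 55 member genes and 77.2% of all such regions. Of the 12, 6 were called: PSMD2 (1.47, SE 0.19), PSMB10 (1.15, SE 0.20), PSMB6 (1.08, SE 0.17), PSMB8 (0.86, SE 0.16), PSMB11 (0.65, SE 0.17) and PSMC5 (0.64, SE 0.16). PSMB6, PSMB8, PSMB10 and PSMB11 are catalytic or specialised beta subunits of the core. Called genes of other families included USP6NL (1.05), USP30 (1.02), UBE2F (1.01) and RNF41 (0.93). TRIM2, OTUD7A, FBXL14 and PSMC3, low in all bulls, were not called between sessions.

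Ubiquitin system genes outside the name rule were read in the same fits. Of 258 such genes listed (activating enzymes, HECT ligases, anaphase-promoting complex, SOCS and ASB adaptors, signalosome subunits, other deubiquitinases and shuttle factors), 70 had a tested probe, 113 in all. Between groups 0 of these probes were called and 1 had an unadjusted p below 0.05, with a median difference of -0.01. In level 16 (14.2%) were called, 3 above and 13 below, beside 21.2% of all tested probes. Between sessions 27 (23.9%) were called, 8 higher and 19 lower, beside 8.08% of all tested and 14.6% of named probes. BIRC6, a very large ligase that also conjugates ubiquitin, differed most between sessions over its 6 probes, with 0.92, 2.67 and 1.42 in HF2, HF3 and SF4 and -0.61, -0.23 and -0.38 in HF5, SF1 and SF5 (-2.07, SE 0.41, adjusted p = 0.0128). The signalosome subunit COPS6, whose complex removes NEDD8 from cullins, was higher on the later dates by 0.76 (SE 0.18, adjusted p = 0.0250).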

How the data were processed

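Linear spot intensities and log10 ratios (red over green) were deposited for each array, extracted with Agilent Feature Extraction 10.7.3.1 per the file headers, under a CGH protocol for SF1 and a ChIP protocol for the other 5. A deposited table of log2 ratios for the series matched those ratios, on that scale, within 0.001 at 177439 probes on each array. Gene names were in 3 of 6 files and were carried to the others by probe identifier. Of the 193 member symbols, 179 were in a RefSeq gene table of assembly NDDB_SH_1, used for names only. The arrays lay on 2 slides.

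Levels were log2 of processed IP over input signal, centred on each array's median, with no loess or quantile step. Probes, and regions of at least 3 probes, were fitted over the whole array with limma 3.58.1 in R 4.3.3 (lmFit, eBayes, 2-sided, Benjamini-Hochberg, threshold 0.05), with the data.table package (1.17.8); tables and plots were made with Python 3.11.15, pandas 2.3.3 and matplotlib 3.10.9. The fits were tested on simulated data with 200 changed features. The number of arrays limits the precision. Probes of 1 gene share their fragments and are not replicates of a bull.

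The members, gene lists and tests were chosen with earlier results of these data known. Named were: regions with groups that did not overlap, the 4 highest and lowest regions and 3 highest and lowest probes by level, up to 4 such probes per direction by unadjusted p, and up to 4 regions per direction by session. Alternatives were normexp (offset 50), no filter or an IP filter, centring on tested probes, quantile normalization, the series table, session or slide as a block, each session alone, sessions weighted equally, 1, 2 or 4 probes per region, wider regions, and each bull left out. Each session alone has 1 bull in 1 of the groups, taken to vary like the rest. Marker regions were imprinted, leukocyte (RUNX3) and epithelial genes (ESRP1 at -0.21, DSP at -0.39, PEG10 at 0.02).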

Additional observations from a re-analysis of the deposited data

How the results depend on the processing

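No paired analysis was possible because the groups share only replicate number 5. The count of members called between groups was 0 under every alternative run, for probes, regions and other pathway genes. The median probe difference was 0.19 without a filter, -0.027 with tested-probe centring, -0.052 with quantile normalization, -0.0496 with the session block, 0.019 in the later session alone, and -0.18 to -0.020 with 1 bull left out.

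Level calls moved with the probes kept: 71 probes without a filter (52 above, 19 below), 23 with the IP filter and 60 with sessions weighted equally, and 14 to 31 with 1 bull left out. Region calls were 1, 0 and 7 in those 3 settings, 12, 7 and 2 with at least 1, 2 or 4 probes, 17 with wider regions and 3 to 4 with 1 bull left out. The median level was -0.11 with normexp, 0.32 without a filter and -0.000705 with tested-probe centring. Without a filter TRIM2, OTUD7A, FBXO15 and PSMC4 were not called. Session calls were 50 probes with normexp, 34 with quantile normalization and 0 to 39 with 1 bull left out. Session regions numbered 31 without a filter (all lower), 1 with the IP filter, 20 and 8 with at least 1 or 2 probes, 20 when wider (19 higher, 1 lower) and 0 to 5 with 1 bull left out. The median session difference was -0.80 without a filter, 0.26 with the IP filter, -0.15 with tested-probe centring and 0.041 to 0.21 with 1 bull left out. For other pathway genes, level calls were 53 without a filter, 43 with sessions weighted equally and 6 to 19 with 1 bull left out, and session calls 47, 17 and 43 with normexp, tested-probe centring and quantile normalization and 0 to 47 with 1 bull left out.

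Values that turned sign were not called in the setting that turned them, and of these only the PSMC4 level had been called: with normexp FBXL22 (difference -0.015, level -0.076, session 0.10), USP1 level (-0.014) and FBXO36 level (-0.031); without a filter PSMC4 level (0.00096); USP1 level with quantile normalization (-0.000554), wider (-0.12) or without a bull (-0.072 to 0.19); FBXL22 session with quantile normalization (0.094) or without a bull (-0.12 to 0.045); and PSMC4 session when wider (0.26) or without a bull (-0.20 to 0.18). The cause of these changes was not tested. Of the other comparisons for named genes and probes, 476 kept their direction and side of the threshold, 74 lost the call and 8 gained it. Dim IP signal limits the first-session values most.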
